A study of Rattus norvegicus with 8 samples.

Results

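A set of 10 genes of matrix breakdown and its control were followed across 8 kidney arrays: the inhibitors Timp1, Timp2 and Timp3, the ADAMTS proteases Adamts1 and Adamts4, and the matrix metalloproteinases Mmp2, Mmp3, Mmp7, Mmp9 and Mmp14. They were chosen by symbol from the platform's annotation, with the ranges between arrays of Timp1, Adamts1 and others in these data already known, so that their spread between arrays is a description and not a finding. Each of the 10 was measured by 1 probe set carrying that symbol alone, out of 18166 genes in all. Kidneys came from male Wistar rats aged 10 weeks, every one labelled as given ethylene glycol each day together with vitamin D on alternate days for 1 week, a combination used to form calcium oxalate crystals in rat kidney because ethylene glycol is metabolised to oxalate. The arrays fall into 4 of medulla and 4 of cortex, and since the treatment label is shared by all of them, no treated kidney was set against an untreated one. The labels name no animals, so that neither pooling of rats nor which medulla and cortex pieces came from the same rat is known, and p-values rest on a spread between arrays that could be technical. Replicate numbers only name arrays within a region.

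Matrix metalloproteinases are zinc enzymes that cut collagens, laminins and other matrix proteins, and most are secreted as inactive precursors. ADAMTS proteases are secreted relatives best known for cutting large proteoglycans such as versican and aggrecan. TIMPs bind the active site of matrix metalloproteinases and block it, and TIMP3 blocks ADAMTS proteases as well. Matrix turnover in the kidney thus depends on the balance between the families as well as on the level of any single enzyme.

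The median intensity of an array was 34.1 to 34.7, and levels below are log2 of the deposited intensity, so that 1 unit is a 2-fold difference. A level of 4.44 to 4.48 was the lower quartile of all probe sets and 5.09 to 5.12 their median. Levels of different genes come from different probes and are not compared. Of the marker genes used to check the regions, Slc14a2, which encodes a urea transporter found in the inner medulla, measured 7.42, 6.15, 6.49 and 6.76 on the medulla arrays and 5.88, 4.95, 5.05 and 4.80 on the cortex arrays. These did not overlap, as in 2.83% of all genes. Aqp2 and Aqp3 of the same list did overlap, at 8.12 to 10.78 and 7.01 to 9.20 in medulla, against 8.03 to 9.72 and 6.42 to 8.20 in cortex. The podocyte gene Nphs1 was also measured in medulla, at 5.87 to 6.73, against 6.23 to 7.15 in cortex. Between the regions, 0 of 18166 genes (0.0%) passed the test. The replicate 4 arrays of medulla and cortex stood apart from the other arrays in many genes, and some of the results that rest on them are also given without them.

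Timp1, a secreted inhibitor of most matrix metalloproteinases, had its highest level on the replicate 4 array of each region. It measured 6.13, 5.73, 7.48 and 9.11 on medulla replicates 1 to 4, and 5.87, 5.81, 5.94 and 8.78 on cortex replicates 1 to 4. In cortex the highest array stood 7.16-fold above the next, while the other 3 lay within 0.13 log2 units of each other. Medulla had an intermediate array as well, replicate 3, and its highest array stood 3.09-fold above that one. The whole range was 10.4-fold in medulla and 7.82-fold in cortex.

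Adamts1, a protease that cuts versican and other proteoglycans, was spread in a similar way. Its levels were 6.29, 6.88, 7.24 and 9.68 on the medulla arrays and 6.22, 6.95, 6.73 and 9.53 on the cortex arrays. The replicate 4 array stood 5.40-fold above the next in medulla and 5.98-fold above the next in cortex. Adamts1 had no intermediate array of the size that Timp1 had: without replicate 4 its medulla range was 0.95 log2 units, against 1.75 for Timp1.

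Adamts4, an aggrecan-cutting protease, had the same highest arrays at a much smaller size. It measured 4.85, 4.74, 4.91 and 5.51 in medulla and 4.85, 4.68, 4.62 and 5.48 in cortex. Replicate 4 stood 1.51-fold above the next array in medulla and 1.54-fold in cortex. The lower values sat at the 31.6th percentile of the probe sets and above, where background makes up part of the signal, so that its ranges of 0.76 and 0.86 log2 units may understate the difference. Without replicate 4 the ranges were 0.17 in medulla and 0.23 in cortex.

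**Figure D1:**
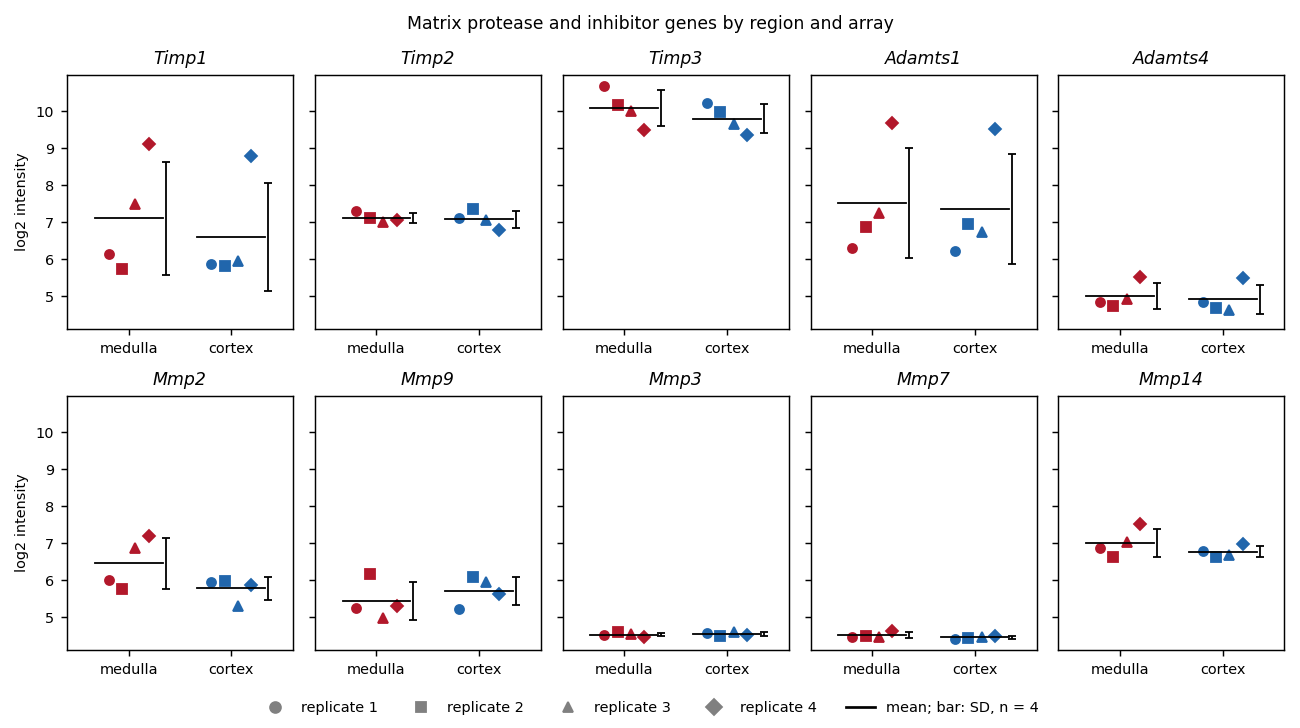
Log2 intensity of the 10 genes on each array, medulla in red on the left and cortex in blue on the right of each panel; symbols mark the replicate, horizontal lines the mean and bars the SD of 4 arrays. Timp1 and Adamts1 reach 9.11 and 9.68 on medulla replicate 4 and 8.78 and 9.53 on cortex replicate 4, above every other array.

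The promoters of these 3 genes, whose levels were highest on the same arrays, are shown because the shared pattern makes their upstream sequence of interest. The windows run from 250 bases before to 50 bases after the RefSeq gene start in build GRCr8, 5′ to 3′ along the gene. They lie at chrX:3771073-3771372 on the minus strand for Timp1, at chr11:38427335-38427634 on the minus strand for Adamts1 and at chr13:86202761-86203060 on the plus strand for Adamts4. Both strands were searched for the AP-1 motif TGANTCA, the STAT motif TTCNNNGAA and the SP1 motif GGGCGG, and capitals mark every match. Of the 33469 promoters in the table, 7.33% held the AP-1 motif, 8.87% the STAT motif and 33.1% the SP1 motif, and no matches in these windows overlapped.
Timp1: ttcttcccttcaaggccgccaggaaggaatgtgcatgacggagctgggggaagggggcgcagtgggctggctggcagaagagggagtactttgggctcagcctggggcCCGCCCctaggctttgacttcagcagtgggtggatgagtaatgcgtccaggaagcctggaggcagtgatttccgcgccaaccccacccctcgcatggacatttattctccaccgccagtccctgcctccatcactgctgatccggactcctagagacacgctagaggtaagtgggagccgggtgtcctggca
Adamts1: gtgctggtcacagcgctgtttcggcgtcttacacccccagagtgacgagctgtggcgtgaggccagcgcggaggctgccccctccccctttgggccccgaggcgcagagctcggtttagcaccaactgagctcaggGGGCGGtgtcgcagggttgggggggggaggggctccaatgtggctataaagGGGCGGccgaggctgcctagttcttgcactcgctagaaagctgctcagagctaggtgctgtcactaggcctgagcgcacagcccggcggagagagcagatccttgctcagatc
Adamts4: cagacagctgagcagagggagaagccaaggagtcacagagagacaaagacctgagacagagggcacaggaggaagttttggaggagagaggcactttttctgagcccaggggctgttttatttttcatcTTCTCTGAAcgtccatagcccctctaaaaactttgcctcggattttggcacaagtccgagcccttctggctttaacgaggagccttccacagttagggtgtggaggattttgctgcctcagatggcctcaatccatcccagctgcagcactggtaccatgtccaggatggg
The Timp1 window held 1 SP1 match, beginning 142 bases before the start and read on the opposite strand. The Adamts1 window held 2 SP1 matches, 114 and 63 bases before the start. The Adamts4 window held no SP1 match and 1 STAT match, 121 bases before the start. No exact match to the AP-1 motif was in any of the 3 windows. Near matches were not counted, such as the letters tgagtaa in the Timp1 window, so AP-1 sites that depart from the motif are not excluded.

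The other inhibitors did not share the Timp1 pattern. Timp3, which binds to the matrix and blocks ADAMTS proteases and ADAM17 as well as metalloproteinases, measured 10.68, 10.17, 10.01 and 9.48 in medulla and 10.23, 9.99, 9.65 and 9.35 in cortex. Its lowest array in each region was replicate 4, the array on which Timp1 was highest. The range was 2.29-fold in medulla and 1.84-fold in cortex, and without replicate 4 it was 0.67 and 0.58 log2 units. The summed levels of 2 marker lists of the distal nephron ordered the 4 arrays of a region as Timp3 did, in medulla and in cortex, though not every gene of the lists did. The collecting duct and inner medulla list (Aqp2, Aqp3 and Slc14a2, 3 of 3 measured) summed to 2511, 1504, 1071 and 515 intensity units in medulla and 1200, 1066, 870 and 375 in cortex. The thick ascending limb list (Umod and Slc12a1, 2 of 2 measured) summed to 5826, 5724, 4825 and 2619 in medulla and 6246, 5214, 4656 and 2093 in cortex. Aqp2 and Aqp3 had that order in both regions, Umod and Slc12a1 in cortex but not in medulla, and Slc14a2 in neither, with 6.76 on medulla replicate 4 against 6.15 on replicate 2. The part of these cells in the Timp3 values was not tested, and in whole tissue fewer cells of a type and less RNA per cell cannot be told apart.

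Timp2, which inhibits metalloproteinases and also helps MMP14 to activate the MMP2 precursor, varied less than Timp1 and Timp3. It measured 7.31, 7.10, 7.00 and 7.06 in medulla and 7.10, 7.35, 7.07 and 6.79 in cortex. Its ranges were 1.24-fold and 1.48-fold, and only in cortex was replicate 4 the lowest array.

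The gelatinase gene Mmp2, whose product cuts denatured collagen and basement membrane collagen, had its high values in medulla. It measured 6.00, 5.76, 6.87 and 7.20 on the medulla arrays and 5.96, 5.98, 5.30 and 5.88 on the cortex arrays. Medulla replicates 3 and 4 lay above the other 6 arrays, and cortex replicate 3 lay below all of them. Its range was 2.71-fold in medulla, or 1.11 log2 units without replicate 4, and 1.61-fold in cortex, or 0.10 log2 units without replicate 3. The fibroblast and pericyte list (Pdgfra, Pdgfrb, Col1a1, Col3a1, Dcn and Lum, 6 of 6 measured) summed to 1254, 781, 1632 and 1570 intensity units in medulla and 1343, 1144, 677 and 823 in cortex. Its lowest sums too were on medulla replicate 2 and cortex replicate 3, as were the lowest levels of Pdgfra, Pdgfrb, Col1a1 and Col3a1 in each region. Dcn was lower on cortex replicate 4, at 7.95 against 8.15 on replicate 3, and Lum stayed between 4.25 and 4.38 on all arrays. The part of these cells in the Mmp2 values was not tested.

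Mmp14 encodes the membrane-anchored collagenase that activates the MMP2 precursor at the cell surface. It measured 6.86, 6.64, 7.02 and 7.53 in medulla and 6.78, 6.63, 6.69 and 6.98 in cortex. As with Mmp2, medulla replicates 4 and 3 were the highest of all 8 arrays, though medulla replicate 3 was only just above cortex replicate 4. The range was 1.86-fold in medulla and 1.27-fold in cortex, or 0.38 and 0.15 log2 units without replicate 4. The macrophage list (Cd68, Adgre1, Csf1r, Cd163, Mrc1, C1qa, C1qb and C1qc, 8 of 8 measured) had its highest sums on the same medulla arrays, with 442, 403, 479 and 618 units in medulla and 450, 380, 320 and 423 in cortex. Most of its genes did not clearly follow this order. Mrc1 did, with 5.90 and 5.74 on medulla replicates 4 and 3, against 4.97 to 5.37 on the other arrays. Adgre1 measured 5.74 on medulla replicate 4, against 5.90 on replicates 1 and 3, and Cd163 stayed between 4.50 and 4.66 on all arrays. Cd68 and C1qa were higher on cortex replicate 4, at 5.53 and 6.39, than on medulla replicate 3, at 5.42 and 6.13. Csf1r was higher on cortex replicate 1, at 7.10, than on medulla replicate 3, at 6.98. In C1qb and C1qc a cortex array came level with medulla replicate 3, at 5.74 and 5.61. The part of these cells was not tested.

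The other gelatinase gene, Mmp9, followed a pattern of its own. It measured 5.25, 6.17, 4.97 and 5.31 in medulla and 5.23, 6.08, 5.95 and 5.64 in cortex. Medulla replicate 2 and cortex replicates 2 and 3 were its highest arrays, and the replicate 4 arrays were neither highest nor lowest in either region. The range was 2.30-fold in medulla, or 0.34 log2 units without replicate 2, and 1.81-fold in cortex. Neutrophils are a known source of MMP9, and their list (S100a8, S100a9, Mpo, Elane and Csf3r, 5 of 5 measured) stayed between 112 and 117 units in medulla and between 112 and 121 in cortex. S100a8 lay at 4.21 to 4.25, and S100a9, Mpo and Elane between 4.43 and 4.70, near the lower quartile. Such sums may hold little but background and do not show the neutrophil genes to be steady. Csf3r was highest on replicate 4 in each region, at 4.91 in medulla and 4.81 in cortex. The podocyte list, of which Nphs1 and Podxl were measured out of 4 genes, summed to 421, 651, 416 and 360 in medulla and 467, 623, 723 and 541 in cortex, so that the sum was highest on medulla replicate 2 and cortex replicates 2 and 3 too. Podxl had these highest arrays, while Nphs1 was slightly higher on cortex replicate 4, at 6.77, than on medulla replicate 2, at 6.73. The sum of the proximal tubule list (Slc34a1, Lrp2, Cubn, Slc5a2 and Slc22a6, 5 of 5 measured) was also highest on these 3 arrays, at 5728, 6016 and 6281 units, against 3940 to 5496 on the others. Of its genes Cubn and Slc5a2 went another way, with their highest levels on replicate 4, at 10.17 and 6.85 in medulla and 10.33 and 8.06 in cortex. The part of either in the Mmp9 values was not tested.

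Mmp3 and Mmp7, the genes of stromelysin and matrilysin, gave a signal near the lower quartile on every array. Mmp3 lay between 4.46 and 4.59 in medulla and between 4.49 and 4.60 in cortex. Mmp7 lay between 4.45 and 4.63 in medulla and between 4.42 and 4.50 in cortex, with its highest value on medulla replicate 4. Signals this dim may hold little but background, so that these ranges of at most 1.13-fold do not show the transcripts to be steady. Both genes belong to a cluster of metalloproteinase genes on chromosome 8 in the RefSeq table, of which 9 genes were measured. Apart from Mmp12, the macrophage elastase gene, whose highest value was 4.99 on cortex replicate 4, the 8 others lay between 4.20 and 4.70 on all arrays.

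The Mmp3 and Mmp7 promoters are shown beside those above, since of the 7 member windows found theirs were the 2 with an exact AP-1 match. The AP-1 motif is the site through which stromelysin and matrilysin genes are known to respond to growth factors and cytokines. Mmp7, though near background, also had its highest level on replicate 4 in each region. The GRCr8 windows lie at chr8:12925031-12925330 for Mmp3 and chr8:13132793-13133092 for Mmp7, both on the plus strand, and capitals mark the AP-1 match.
Mmp3: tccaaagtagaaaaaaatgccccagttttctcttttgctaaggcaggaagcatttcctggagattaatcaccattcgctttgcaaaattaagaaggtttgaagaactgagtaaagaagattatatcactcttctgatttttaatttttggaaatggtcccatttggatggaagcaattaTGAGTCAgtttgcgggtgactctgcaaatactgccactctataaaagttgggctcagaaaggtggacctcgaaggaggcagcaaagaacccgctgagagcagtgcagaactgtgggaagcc
Mmp7: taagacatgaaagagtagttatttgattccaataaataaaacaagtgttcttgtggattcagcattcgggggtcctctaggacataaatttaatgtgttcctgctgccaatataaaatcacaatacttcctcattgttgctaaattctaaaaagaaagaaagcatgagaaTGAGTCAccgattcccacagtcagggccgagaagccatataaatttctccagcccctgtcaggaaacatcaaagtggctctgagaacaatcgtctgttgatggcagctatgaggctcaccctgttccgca
The match began 71 bases before the start in Mmp3 and 80 bases before it in Mmp7. Promoters were found for 7 of the 10 genes. The windows of Timp2 and Timp3, not printed, held 1 and 3 SP1 matches.

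Medulla against cortex asked whether the levels of these genes differ between the regions. For none of the 10 was a difference called by limma with Benjamini-Hochberg adjustment over all genes at an adjusted p under 0.05 and at least 2-fold, against 0.0% of all genes. Their adjusted p lay between 0.875 and 0.985, and 0 of the 10 reached an unadjusted p under 0.05, as 971 of all genes did. The largest difference was that of Mmp2, with 6.46 ± 0.69 in medulla and 5.78 ± 0.32 in cortex (SD, n = 4 each), a difference of 0.68 ± 0.34 (SE) at a limma adjusted p of 0.875. It was positive in all 14 alternatives, between 0.43 and 0.91, and its exact two-sided permutation p was 0.2, where the smallest that 4 against 4 arrays can give is 0.0286. Timp1 averaged 7.11 ± 1.53 in medulla and 6.60 ± 1.45 in cortex (SD, n = 4 each), a difference of 0.51 ± 0.94 (SE) that stood at -0.15 without medulla replicate 4 and at 1.24 without cortex replicate 4. Adamts1 averaged 7.52 ± 1.49 in medulla and 7.36 ± 1.48 in cortex, a difference of 0.17 ± 0.94 that stood at -0.55 and 0.89 without the same arrays and turned negative without cortex replicates 1 or 3 as well.

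Among the other inhibitors, Timp3 differed by 0.28 ± 0.28 (SE) and Timp2 by 0.039 ± 0.12. Among the proteases, Mmp14 differed by 0.24 ± 0.18, Adamts4 by 0.094 ± 0.23, Mmp9 by -0.30 ± 0.29, Mmp7 by 0.057 ± 0.047 and Mmp3 by -0.018 ± 0.041. In 8 of the 10 genes the difference was positive, and the median of the 10 was 0.13. Over all genes the median was -0.01, and 8319 of 18166 were positive. Among the 8, the signs of Timp1, Timp2, Adamts1 and Adamts4 turned when certain single arrays were left out. The signs of different genes rest on the same arrays and are not independent. The regions overlapped in each of the 10, and they did not overlap in 2.83% of all genes. With a share so low, overlap in all 10 does not set the members apart from other genes.

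Within the regions, the series' own design text asks for genes with a change of at least 2-fold in cortex and in medulla. The arrays its authors set against each other for this are unknown here. The range over all arrays of a region was counted instead, and it may differ from the change they meant. The 10 genes were chosen with such ranges known, so their counts are descriptions. A 2-fold range was reached by 5 of the 10 in medulla (Timp1, Timp3, Adamts1, Mmp2 and Mmp9), against 3.8% of all genes, and by 2 in cortex (Timp1 and Adamts1), against 3.6%. Timp1 and Adamts1 passed in both regions, as did 2.21% of all genes. Their smaller ranges ranked 10th and 7th among all genes. Timp3, at 1.20 log2 units in medulla and 0.88 in cortex, and Mmp9, at 1.20 and 0.85, came closest without passing in both. The median range of the 10 genes was 1.04 in medulla and 0.77 in cortex, against 0.25 and 0.21 for all genes. Without cortex replicate 4 no member passed in both regions, and without medulla replicate 4 only Timp1 did.

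**Figure D2:**
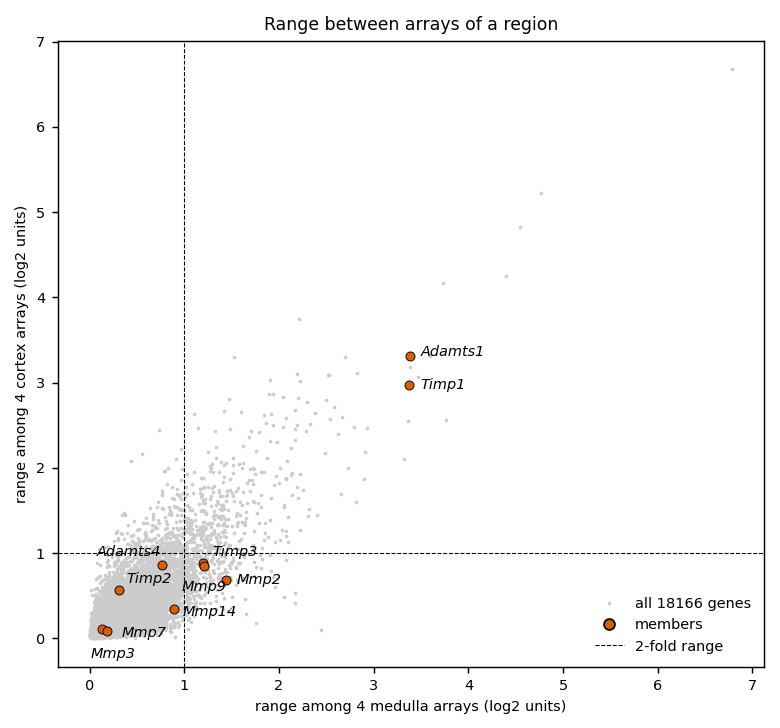
Range of each gene among the 4 medulla arrays, on the horizontal axis, and among the 4 cortex arrays, on the vertical axis, in log2 units; grey points are all 18166 genes, orange points the 10 members and dashed lines a 2-fold range. Adamts1 (3.39 and 3.31) and Timp1 (3.38 and 2.97) lie far out in both regions, and Mmp3 and Mmp7 lie near the origin.

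Replicate 4 was the highest array of its region, in medulla and in cortex, for 5 of the 10 genes: Timp1, Adamts1, Adamts4, Mmp14 and Mmp7. This was so for 17.0% of all genes. It was the lowest in both regions for Timp3, as for 16.0% of all genes. A gap of at least 2-fold between replicate 4 and the next highest array in both regions, as Timp1 and Adamts1 had, was found in 0.38% of all genes. The 10 genes were chosen with ranges between arrays known, so these counts too are descriptions and not a test. Mmp7 lay near background, and its replicate 4 array stood only 0.13 log2 units above the next in medulla and 0.04 in cortex.

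The summed level of the injured tubule list (Havcr1, Krt20, Vcam1, Sox9 and Lcn2, 5 of 5 measured) was highest on the replicate 4 arrays. It summed to 175, 155, 679 and 2778 intensity units in medulla and 179, 169, 314 and 2621 in cortex. Most of this came from Havcr1, the gene of kidney injury molecule 1, which measured 4.54, 4.80, 8.95 and 11.32 in medulla and 4.59, 5.15, 7.54 and 11.27 in cortex. Medulla replicate 3, the array with the intermediate Timp1 level, was also intermediate for Havcr1. Cortex replicate 3, also above the first 2 cortex arrays for Havcr1, had a Timp1 level of 5.94, close to theirs. Beside Havcr1, Lcn2 was highest on replicate 4 in both regions, at 5.82 in medulla and 5.44 in cortex. The other genes of the list were not: Vcam1 was highest on medulla replicate 3, at 6.78, and on cortex replicate 1, at 6.31, Sox9 was highest on replicate 4 in medulla but on replicate 3 in cortex, and Krt20 stayed between 4.31 and 4.44 on all arrays. The smooth muscle list, of which Myh11 and Tagln were measured out of 4 genes, summed to 263, 244, 226 and 461 units in medulla and 225, 251, 192 and 283 in cortex. Its high sums on replicate 4 were those of Tagln, at 8.68 in medulla and 7.82 in cortex, since Myh11 was lowest on medulla replicate 4, at 5.70, and measured 5.83 on cortex replicate 4, against 6.31 on cortex replicate 2. The part of these cells in the Timp1 and Adamts1 values was not tested.

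**Figure D3:**
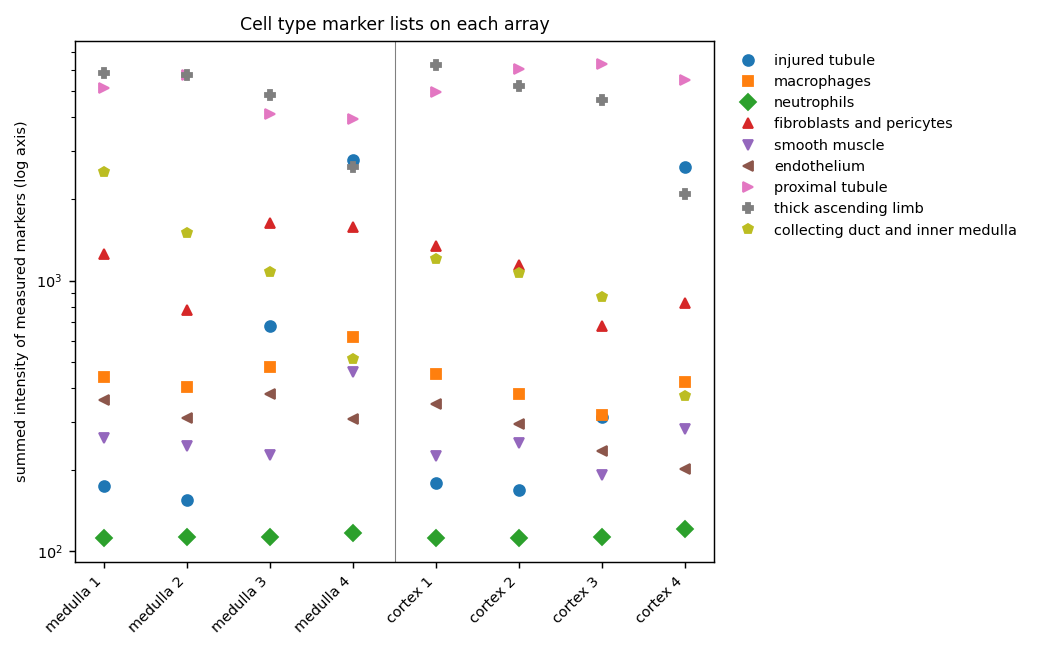
Summed intensity of the measured genes of 9 marker lists on each array, medulla on the left and cortex on the right, on a log axis. The injured tubule list reaches 2778 on medulla replicate 4 and 2621 on cortex replicate 4, where the thick ascending limb list has its lowest sums, 2619 and 2093.

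The genes whose levels followed Timp1 and Adamts1 most closely were found by the root mean square difference over the 8 arrays between deviations from each gene's mean. For Timp1 they were the complement gene C3 at 0.25 log2 units, the fibrinogen gamma chain gene Fgg at 0.27, the cytokine gene Lif at 0.29, and the sodium phosphate cotransporter gene Slc34a2 and the oncostatin M receptor gene Osmr, both at 0.31. For Adamts1 they were Lif and Fgg, both at 0.27, Mab21l3 and Slc34a2, both at 0.29, and Angptl4, which encodes an inhibitor of lipoprotein lipase, at 0.30. The lists had 3 genes in common. C3 measured 5.79, 5.88, 7.07 and 8.72 in medulla and 5.92, 5.85, 6.08 and 8.32 in cortex, and had an intermediate level on medulla replicate 3, as Timp1 did. Lif measured 4.96, 4.99, 5.89 and 8.42 in medulla and 5.05, 4.98, 5.14 and 8.05 in cortex. These arrays share processing and possibly animals, and a small number of arrays sets the measure. It was not computed again without the replicate 4 arrays.

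**Figure D4:**
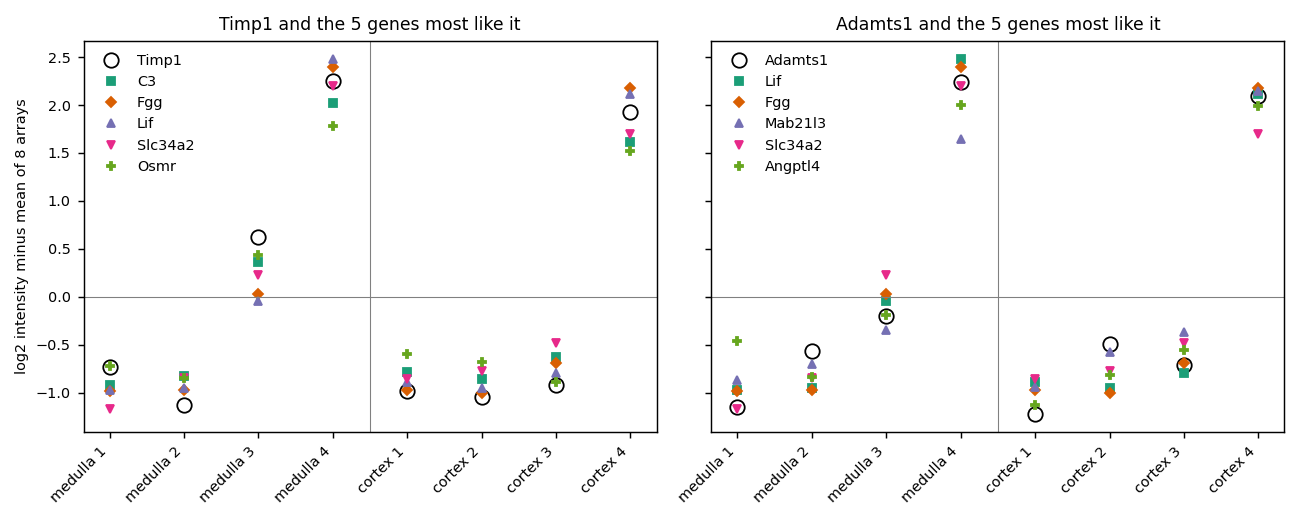
Log2 intensity minus the mean of all 8 arrays, for Timp1 on the left and Adamts1 on the right (open circles) and for the 5 genes most like each (filled symbols); arrays run along the horizontal axis, medulla first. All stand highest on medulla replicate 4 or cortex replicate 4, and on medulla replicate 3 every gene of the Timp1 panel except Lif lies above its mean.

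Genes next to the members on the chromosome did not share these ranges. Of 16 measured neighbours in the RefSeq table of GRCr8, 0 reached a 2-fold range in either region, against 3.8% of all genes in medulla and 3.6% in cortex. At shares so low, a count of 0 does not set the neighbours apart from other genes. Adamts5, an aggrecanase gene and the neighbour of Adamts1, measured 6.20, 6.44, 6.50 and 6.52 in medulla and 6.72, 6.68, 6.18 and 6.04 in cortex. Its replicate 4 array was thus the highest in medulla and the lowest in cortex. Cyyr1, the neighbour on the other side, had its lowest arrays there, 6.26 in medulla and 5.97 in cortex. Araf, a kinase gene next to Timp1, lay between 7.57 and 7.94 in medulla and between 7.67 and 7.94 in cortex.

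Beyond the members, 58 of 70 listed genes of matrix breakdown, its control and its substrates were measured. Limma called 0 of them between the regions, and 3 reached a 2-fold range in both regions, against 2.21% of all genes. They were Mmp15, Mep1a and Cd44. Mmp15, a membrane-anchored relative of Mmp14, measured 7.69, 7.59, 6.42 and 6.11 in medulla and 7.69, 7.15, 6.88 and 6.09 in cortex, lowest on the replicate 4 arrays, where Mmp14 was highest. With replicate 4 left out, Mmp15 still had a range of 1.28 log2 units in medulla and 0.81 in cortex. Mep1a, a meprin protease gene of the proximal brush border, measured 9.35, 9.35, 8.91 and 8.11 in medulla and 9.51, 9.45, 9.46 and 8.30 in cortex. Without replicate 4 its ranges were 0.44 and 0.06 log2 units. Cd44, the hyaluronan receptor that can hold metalloproteinases at the cell surface, was highest on replicate 4, with 5.64, 5.47, 6.28 and 7.02 in medulla and 5.61, 5.33, 5.20 and 6.52 in cortex. Its ranges without replicate 4 were 0.81 and 0.41 log2 units.

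Of the other ADAMTS genes 12 of 17 were measured and 0 reached a 2-fold range in either region, against 3.8% of all genes in medulla and 3.6% in cortex. Adamts9, a proteoglycan-cutting protease gene, had its highest arrays at replicate 4, 6.83 in medulla and 6.68 in cortex, with a range of 0.79 and 0.60 log2 units. Of the other metalloproteinase genes 15 of 17 were measured, and Mmp15 was the 1 with a 2-fold range. Of 6 genes of large proteoglycans and their link proteins none reached it. With so few of all genes reaching it, these counts of 0 do not set the ADAMTS and proteoglycan lists apart from other genes. Vcan, the versican gene and thus a substrate of the ADAMTS1 protein, measured 6.16, 5.51, 6.44 and 6.39 in medulla and 5.81, 5.45, 5.27 and 5.33 in cortex, a difference of 0.66 ± 0.22 (SE) at a limma adjusted p of 0.875.

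Among the inhibitors beside the TIMPs, the general protease inhibitor gene A2m varied among the medulla arrays more than among the cortex arrays. It measured 4.83, 4.60, 6.35 and 6.29 in medulla and 4.68, 4.62, 4.58 and 4.76 in cortex, a range of 1.75 and 0.18 log2 units. Medulla replicates 3 and 4, the high arrays of Mmp2, were its high arrays, and the regional difference was 0.85 ± 0.42 (SE) at a limma adjusted p of 0.875. Timp4 stayed between 4.89 and 5.17 in medulla and between 4.96 and 5.26 in cortex. In the plasminogen system, which can activate metalloproteinase precursors, 6 of 7 genes were measured. A 2-fold range was reached by 0 of them, against 3.8% of all genes in medulla and 3.6% in cortex, which does not set them apart from other genes. Plaur, the urokinase receptor gene, was highest on replicate 4, at 6.16 in medulla, against 5.36 to 5.55 on the other medulla arrays, and at 6.13 in cortex, against 5.31 to 5.53 on the other cortex arrays.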

How the data were processed

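RNA was taken from homogenised rat kidney, labelled with biotin and hybridised to whole-transcript arrays, according to the protocols in the labels. The deposited table holds the authors' intensity of every probe set on the 8 arrays. Per the submitters' processing notes they used RMA in Affymetrix Expression Console (versions: not given in the sources used here). Values ran from 17.3 to 6229 with nearly equal medians, so they were read as linear, between-array normalized intensities, and log2 was taken with no pseudocount. Detection calls were not used here.

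Of 29870 probe sets, 18511 had 1 gene symbol, 575 several genes and 10784 are unnamed here. Of the 18511, 18394 matched the rat RefSeq table (GRCr8) by Entrez identifier and 0 symbols changed. For 291 genes with several probe sets the one with the highest mean was kept, giving 18166 genes. Every column belonged to a labelled sample, and any pair of arrays had at most 1 value that was identical.

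Medulla was compared with cortex in R 4.3.3 with lmFit and eBayes of limma 3.58.1, Benjamini-Hochberg adjustment running over all genes, a fit tested on simulated data, and by the exact permutation test for single genes. Ranges are the highest minus the lowest log2 value of a region. Standard errors are limma's moderated ones. Promoter sequences are RefSeq's, build GRCr8. The planned comparison of TIMP protein sequences was not made. Figures were drawn with matplotlib 3.10.9.

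The members and lists were chosen with earlier results of these data known. The text names the members, the 5 genes most like Timp1 and Adamts1, from each list genes with the largest smaller range or largest difference, chromosomal neighbours and markers. Timp4 and the marker Lum were picked out after their values were seen. The plan tied no marker list to a member. Which list stands beside which member was settled with the values at hand, so an order they share is a description.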

Additional observations from a re-analysis of the deposited data

Results flagged for a closer look

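Of the 20 sets of 4 arrays formed by the 10 genes in each region, 2 held an array far from the other 3. The rule flags about 1 in 20 sets by chance where sets are independent and not chosen by their values. Here the genes were chosen with ranges known and share the same arrays, so the flags are descriptions and not a test. On cortex replicate 4 Timp1 stood at 8.78, with the 3 remaining cortex arrays between 5.81 and 5.94, and the gap to the nearest was 0.96 of the whole range. On cortex replicate 3 Mmp2 stood at 5.30, with the remaining cortex arrays between 5.88 and 5.98, and the gap was 0.86 of the range.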

How the results depend on the processing

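No member was called between the regions under any of the 14 alternatives to the limma fit, among them quantile normalization, median centring, a trended robust prior, array weights and each array left out, and the number of genes called over all was 0 in each of these, and 0 by the adjusted p alone. With no test, 16 genes met a 2-fold difference. Other scalings turned no member's sign. Leaving out single arrays turned the sign of 5 members, with differences from -0.15 to 1.24 for Timp1, -0.55 to 0.89 for Adamts1, -0.074 to 0.29 for Adamts4, -0.058 to 0.13 for Timp2 and -0.038 to 0.0048 for Mmp3. The single reversed values were -0.15 (Timp1), -0.55 (Adamts1) and -0.074 (Adamts4) and 0.0048 (Mmp3) without medulla replicate 4, -0.041 (Adamts1), -0.0017 (Adamts4) and 0.00021 (Mmp3) without cortex replicate 3, -0.21 (Adamts1) without cortex replicate 1, and for Timp2 -0.058 without cortex replicate 4 and -0.026 without medulla replicate 1.

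The 2-fold range was reached by 691 genes in medulla, 654 in cortex and 402 in both. A 1.5-fold range gave 2738, 2063 and 1475, and a 3-fold range gave 157, 186 and 96. Of the members, 6 passed a 1.5-fold range in both regions and 2, Timp1 and Adamts1, a 3-fold range. With single arrays left out the counts ran from 170 to 691 in medulla, 145 to 654 in cortex and 84 to 379 in both, lowest without a replicate 4 array. With replicate 4 of both regions left out, chosen after the data were seen, they were 170, 145 and 45, with 0 members among the 45. Leaving out dim genes removed Mmp3 and Mmp7. With deviations taken from each region's mean, the same 5 genes were most like Timp1, and the same 5 most like Adamts1. No paired analysis was possible because the labels give no replicate numbers that the regions share. The number of arrays limits the precision, and values near background limit Mmp3, Mmp7 and Adamts4.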
